A study of Caenorhabditis elegans with 8 samples.

Results

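Expression of 6 genes of *Caenorhabditis elegans* that the deposited table lists only by a clone-based sequence name, *C01G12.5*, *R05D8.9*, *C08D8.1*, *F58B4.5*, *Y73F4A.2* and *T28C12.4*, was followed in worms given atracurium. They are 6 of the 17521 genes in the table and 6 of the 8688 genes (49.6%) whose name there is a sequence name. They were selected on the measured log2 CPM of the 8 samples, because their values were higher with atracurium than with the water vehicle, so the difference between the groups is given here as a description and was not tested for them.

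RNA was sequenced from whole worms of the wild type strain N2 at day 1 of adulthood. A group of 4 samples had spent the 24 h from larval stage 4 on plates with 50 μM atracurium, and 4 samples had spent them on plates with the water vehicle. Each sample pooled about 1000 worms, and the plates of both groups also held 5-fluorouracil, a drug that stops the production of progeny. Atracurium is a blocker of the neuromuscular acetylcholine receptor, and the sequencing asked which transcripts differ in treated worms. The samples of a group were grown as separate samples, and p-values measure the spread between them. Since whole worms were sequenced, more cells that express a gene and more RNA per cell cannot be told apart.

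A sequence name joins the name of the genomic clone to a running number, and a worm gene carries it until a function, a mutant phenotype or a family gives it a symbol. Genes without a symbol often belong to large families that arose by duplication, and members of one family frequently lie side by side on a chromosome. Enzyme families that modify foreign compounds in the worm, such as the cytochromes P450, the short-chain dehydrogenases and the carboxylesterases, are large families of this kind.

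The samples held 30836643 to 35947045 reads on the listed genes with atracurium and 27922986 to 60015200 reads with water. A count of 0 reads in a sample allows up to 3 reads, which is 0.0487 to 0.107 counts per 1000000 reads (CPM), depending on the sample. Atracurium replicate 2 lay apart from the other samples, at 77.5 on the first principal component (29.9% of the variance) against −23.6 to 6.85 for the other 7. Summed CPM of 35 sperm genes was 83.2 to 179 with atracurium and 185 to 228 with water, and the 5 intestine markers summed to 19847 to 23248 CPM with atracurium and 17568 to 20441 CPM with water. The 4 body wall muscle markers summed to 2234 to 2555 CPM with atracurium and 1923 to 2234 CPM with water, with groups that just did not overlap. The intestine sums overlapped, as did those of the other 4 tissues. None of the 60 marker genes of 7 tissues was at 0 in every sample, and 0 passed an adjusted p of 0.05 in limma-trend or limma-voom, although 33 had an unadjusted p under 0.05 in limma-trend, against 11.5% of all genes. The part of these shifts in the values of the 6 genes was not tested.

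Across the whole table, 25 of 17521 genes (0.143%) were higher with atracurium at an adjusted p under the threshold of 0.05 (limma-trend, two-sided, Benjamini-Hochberg over all genes), and 31 genes (0.177%) differed in either direction. Among the 8688 genes with a sequence name, 8 (0.0921%) were called higher and 2 lower. Of the 6 genes, 5 are among those 8, and *Y73F4A.2* is not. Over the main fit and its alternatives, 20 settings in all, *C01G12.5* and *C08D8.1* were called in 20. *T28C12.4* and *F58B4.5* were called in 19, *R05D8.9* in 11 and *Y73F4A.2* in 7, and a stricter low-count filter removed *R05D8.9* before the fit. Because the same contrast chose the genes, these counts say nothing further about them. The 31 genes became 78 without atracurium replicate 2, 17 without atracurium replicate 1, 18 without water replicate 2 and 20 without water replicate 3. In all 6 genes every atracurium sample lay above every water sample, an arrangement found for 597 of the 17521 genes (3.41%) and for 204 of those with a sequence name.

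**Figure D1:**
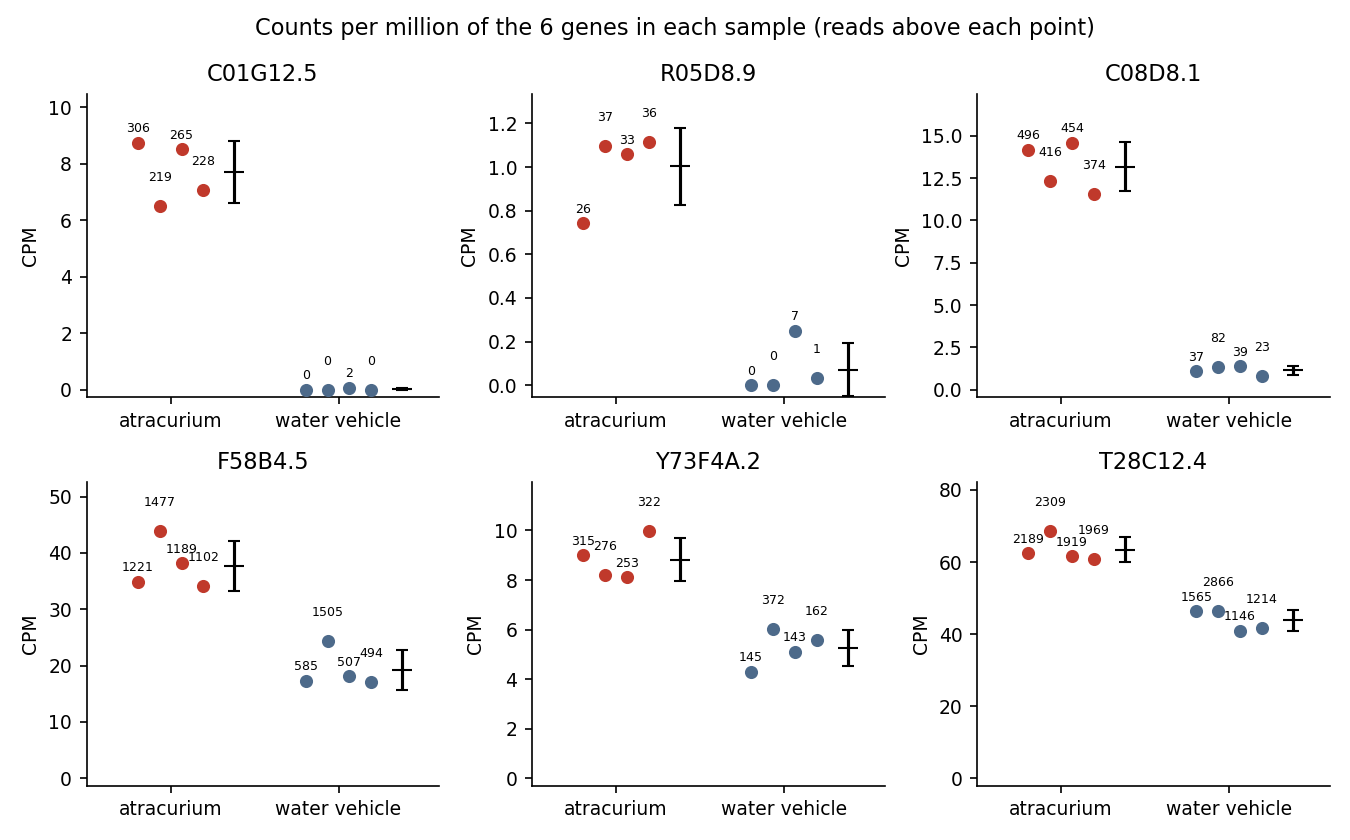
CPM of each of the 6 genes in the 4 atracurium samples (red, left) and the 4 water vehicle samples (blue, right), with linear axes that include 0, the reads of each sample above its point, and the group mean with its SD in black. No atracurium point overlaps the water points, but the water level runs from 0 reads in *C01G12.5* to 1146 reads or more in *T28C12.4*.

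The annotation held for these genes is thin. All 6 are protein coding. The table gives no description for 4 of them, *C01G12.5*, *R05D8.9*, *C08D8.1* and *F58B4.5*, and 7951 of the 8688 genes with a sequence name (91.5%) have none either. It describes *T28C12.4* as a carboxylic ester hydrolase and *Y73F4A.2* as a DOMON domain-containing protein. In the RefSeq gene table for the same assembly, WBcel235, all 6 were found, and 3 of them now carry a symbol: *C01G12.5* is *cror-1*, *R05D8.9* is *cror-2* and *T28C12.4* is *cest-24*. Of the 8656 genes with a sequence name that could be matched there, 1026 carry a symbol now. Of the 6 genes, 4 lie on chromosome V, 1 on II and 1 on IV, and chromosome V holds 20.8% of all genes in the table and 21.1% of those with a sequence name. In summed exon length, 3 of the 6 are shorter than the median of 1277 nt over all genes.

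*C01G12.5* (WBGene00007245, chromosome II, 14586527 to 14587507 on the minus strand, WBcel235) had the largest difference of the 6 and was close to absent from water worms. Its reads numbered 306, 219, 265 and 228 in atracurium replicates 1 to 4, against 0, 0, 2 and 0 in water replicates 1 to 4. As CPM the atracurium samples stood at 8.74, 6.50, 8.51 and 7.05, and the water samples at 0, 0, 0.0715 and 0. All atracurium samples were of similar height, and both water reads came from a single sample. The groups averaged 7.70 ± 1.10 CPM with atracurium and 0.0179 ± 0.0358 CPM with water (SD, n = 4 each).

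The ratio of summed reads of *C01G12.5*, 1018 with atracurium and 2 with water, each over its library sizes, was 587, and a 95% exact binomial interval of 162 to 4853 shows how little 2 reads fix it. Here and below, such intervals cover counting error only and not the spread between samples. Without water replicate 3 no water read is left, and the gene was then at least 95.9-fold higher with atracurium, taking 3 reads in each of the other water libraries as the limit. On the deposited log2 CPM scale, in which the authors had added a prior count to every gene, the difference was 6.80 (SE 0.32). This is the third largest difference (rank 3) in the table.

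*R05D8.9* (WBGene00019886, chromosome V, 2766232 to 2767565 on the minus strand) was also close to absent from water worms but stayed low with atracurium. It had 26, 37, 33 and 36 reads in atracurium replicates 1 to 4, against 0, 0, 7 and 1 reads in water replicates 1 to 4. In CPM these are 0.743, 1.10, 1.06 and 1.11 with atracurium and 0, 0, 0.250 and 0.0344 with water. Water replicate 3 stands above the other water samples, at 24.95% of the mean atracurium level, and still lies below the lowest atracurium sample.

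The mean level of *R05D8.9* was 1.00 ± 0.175 CPM with atracurium and 0.0712 ± 0.121 CPM with water (SD, n = 4 each). Its reads summed to 132 with atracurium and 8 with water, a ratio of 19.02 (95% exact binomial interval 9.38 to 45.0), which rests on water replicate 3: without that sample the ratio was 124 (21.9 to 4945) over a single water read. The log2 difference was 3.44 (SE 0.52), the widest standard error of the 6. Of all 6 genes it had the fewest reads with atracurium, and water replicate 3 was also the sample that held the only water reads of *C01G12.5*.

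*C08D8.1* (WBGene00015592, chromosome V, 8345759 to 8349909 on the plus strand) was measured in every water sample and was an order of magnitude higher with atracurium. Its counts were 496, 416, 454 and 374 reads in atracurium replicates 1 to 4, against 37, 82, 39 and 23 reads in water replicates 1 to 4. The levels were 14.2, 12.3, 14.6 and 11.6 CPM with atracurium and 1.10, 1.33, 1.40 and 0.792 CPM with water. Within each group the samples were close together, and the lowest atracurium sample was 3.002 log2 units above the highest water sample. The means were 13.2 ± 1.44 CPM with atracurium and 1.15 ± 0.273 CPM with water (SD, n = 4 each), the ratio of reads was 11.1 (95% exact binomial interval 9.51 to 13.0), and the log2 difference was 3.47 (SE 0.18), rank 7 in the table.

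*F58B4.5* (WBGene00010238, chromosome V, 10932693 to 10934245 on the plus strand) was present at a moderate level in both groups. It had 1221, 1477, 1189 and 1102 reads in atracurium replicates 1 to 4, against 585, 1505, 507 and 494 reads in water replicates 1 to 4. Scaled to library size these were 34.9, 43.8, 38.2 and 34.1 CPM with atracurium and 17.3, 24.4, 18.1 and 17.0 CPM with water. Replicate 2 was the highest sample of both groups, and the 1505 reads of water replicate 2 belong to the deepest library. The means were 37.7 ± 4.42 CPM with atracurium and 19.2 ± 3.498 CPM with water (SD, n = 4 each), with a ratio of reads of 1.86 (95% exact binomial interval 1.78 to 1.95) and a log2 difference of 0.98 (SE 0.12), rank 126. Without water replicate 2 the ratio was 2.16 (2.04 to 2.29), outside that interval, and without water replicate 1, 3 or 4 it was 1.79 to 1.82.

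*Y73F4A.2* (WBGene00013515, chromosome IV, 9042387 to 9043347 on the minus strand) carries a DOMON domain, a fold first described in dopamine beta-monooxygenase that binds heme or sugars in several proteins. It had 315, 276, 253 and 322 reads in atracurium replicates 1 to 4, against 145, 372, 143 and 162 reads in water replicates 1 to 4. After scaling these were 8.998, 8.19, 8.13 and 9.96 CPM with atracurium and 4.29, 6.04, 5.12 and 5.58 CPM with water. The raw reads of the groups overlap because of the deep water replicate 2, whereas the CPM values do not. The means were 8.82 ± 0.860 CPM with atracurium and 5.26 ± 0.744 CPM with water (SD, n = 4 each), with a ratio of reads of 1.64 (95% exact binomial interval 1.49 to 1.79) and a log2 difference of 0.75 (SE 0.13), rank 286.

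*T28C12.4* (WBGene00020891, chromosome V, 6316932 to 6326392 on the plus strand) is the carboxylic ester hydrolase, an enzyme class that splits esters into an alcohol and an acid. It had the most reads of the 6 and the smallest difference. It had 2189, 2309, 1919 and 1969 reads in atracurium replicates 1 to 4, against 1565, 2866, 1146 and 1214 reads in water replicates 1 to 4. The corresponding levels were 62.5, 68.5, 61.6 and 60.9 CPM with atracurium and 46.3, 46.5, 40.99 and 41.8 CPM with water. Samples of a group lay within a few CPM of each other, apart from atracurium replicate 2 at the top of its group. The means were 63.4 ± 3.47 CPM with atracurium and 43.9 ± 2.92 CPM with water (SD, n = 4 each), the ratio of reads was 1.42 (95% exact binomial interval 1.38 to 1.47), and the log2 difference was 0.53 (SE 0.07), rank 599.

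Levels of different genes were compared only per kilobase of exon. With atracurium the order was *F58B4.5* at 27.7, *T28C12.4* at 26.3, *Y73F4A.2* at 10.6, *C08D8.1* at 9.72, *C01G12.5* at 9.17 and *R05D8.9* at 1.06 CPM per kb. The same quantity in water was 14.1 for *F58B4.5*, 18.2 for *T28C12.4*, 6.32 for *Y73F4A.2*, 0.852 for *C08D8.1*, 0.0213 for *C01G12.5* and 0.0752 CPM per kb for *R05D8.9*. Neighbours in the order with atracurium, such as *F58B4.5* and *T28C12.4* or *Y73F4A.2*, *C08D8.1* and *C01G12.5*, differ by little beside the spread of their samples. In the ranking of all genes by CPM per kb, *C01G12.5* stood at percentile 59.1 with atracurium and 0.257 with water, and *C08D8.1* at percentile 59.9 with atracurium and 28.1 with water. *R05D8.9* stood at percentile 31.9 with atracurium and 2.78 with water. The other 3 genes stayed within the same part of the ranking, from percentile 61.0 to 72.8 with atracurium and 54.03 to 67.3 with water.

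**Figure D2:**
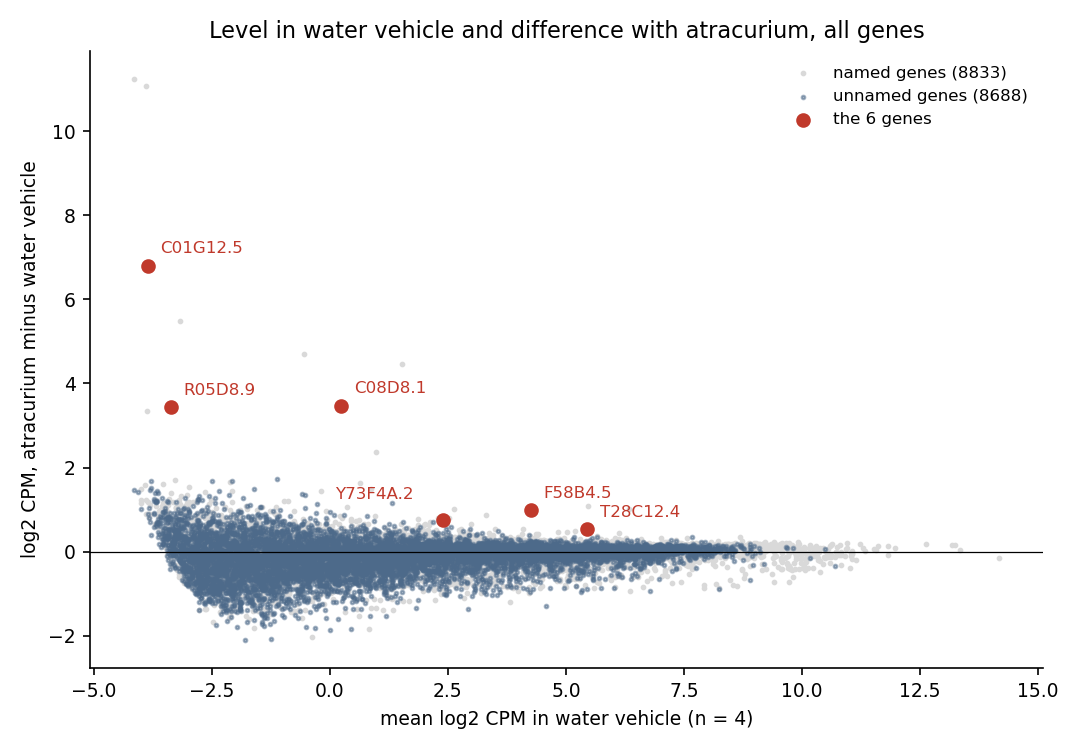
Mean log2 CPM in the 4 water samples (horizontal axis) against the log2 difference of atracurium minus water (vertical axis) for all genes, with named genes in gray, genes with a sequence name in blue and the 6 genes in red. *C01G12.5* (6.80), *C08D8.1* (3.47) and *R05D8.9* (3.44) lie far above the cloud, whereas *F58B4.5* (0.98), *Y73F4A.2* (0.75) and *T28C12.4* (0.53) lie at the upper edge of it, where genes have more reads.

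Among the 6 genes, *C01G12.5* and *R05D8.9* thus had large differences from little or no signal in water. *C08D8.1* had a large difference from a low level that was measured in every water sample. *F58B4.5*, *Y73F4A.2* and *T28C12.4* had small differences and were already expressed in water. The median log2 difference was −0.01 over all genes and −0.05 over the genes with a sequence name. The table held 510 genes with 12 reads or fewer over the 4 water samples together. A gene near 0 in every water sample passed the authors' filter on low counts only through its atracurium reads, so this set and its calls depend on the outcome and are a description. In it, 5 of the 510 genes were called higher with atracurium by limma-trend, against 25 of all 17521 genes (0.143%). These were *C01G12.5*, *R05D8.9* and the cytochrome P450 genes *cyp-35A1*, *cyp-35B2* and *cyp-35B3*. *R05D8.9* was called in only 11 of the 20 settings. In this set *cyp-35B3* had 4046 to 4881 reads with atracurium and 0 reads in every water sample, and *cyp-35A1* had 13 to 36 reads with atracurium and 4 reads with water, all in water replicate 2. The call of *cyp-35A1* (adjusted p = 0.00652, limma-trend) was lost with limma-voom (adjusted p = 0.0628) and without atracurium replicate 1 (limma-trend adjusted p = 0.0590), and its adjusted p was 0.000232 to 0.0628 over the alternatives. The atracurium reads of *C01G12.5* lay between those of these genes, and those of *R05D8.9* lay in the range of *cyp-35A1* in all but 1 sample.

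The spread between samples beyond counting noise differed among the 6 genes. The index of dispersion, which is 1 where samples of a group differ by counting noise alone, was 1.06 with atracurium and 8.68 with water for *R05D8.9*, where the value in water reflects replicate 3. It was 5.22 with atracurium and 2.97 with water for *C01G12.5*, 5.12 with atracurium and 2.05 with water for *C08D8.1*, and 2.71 with atracurium and 4.30 with water for *Y73F4A.2*. *F58B4.5* had an index of 17.4 with atracurium and 29.4 with water, and *T28C12.4* had 6.31 with atracurium and 6.84 with water. The index grows with the number of reads and does not rank genes by relative spread. As the SD of log2 CPM, the spread was 0.16 with atracurium and 0.24 with water for *F58B4.5*, 0.08 with atracurium and 0.10 with water for *T28C12.4*, and 0.26 with atracurium and 1.16 with water for *R05D8.9*. Leaving out each sample in turn moved the log2 difference of *F58B4.5* between 0.91 and 1.10 and that of *T28C12.4* between 0.49 and 0.56. Without atracurium replicates 2 and 4 together, an alternative chosen after the data were seen, the differences were 6.97 for *C01G12.5*, 3.61 for *C08D8.1*, 3.29 for *R05D8.9*, 0.94 for *F58B4.5*, 0.71 for *Y73F4A.2* and 0.50 for *T28C12.4*.

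*C01G12.5* and *R05D8.9* have almost the same gene structure, a likeness noticed after their values were known. In the Ensembl release 115 annotation of WBcel235, the 4 coding exons of *C01G12.5* measure 37, 428, 171 and 201 nt, and those of *R05D8.9* measure 40, 428, 171 and 204 nt. Of 19985 coding genes in the annotation, 4 genes have a coding exon of 428 nt followed by one of 171 nt: these genes, *dhs-14* and *F26D2.15*. All coding exons of *dhs-14* and of *F26D2.15* have the lengths of those of *C01G12.5*, so both match it more closely than *R05D8.9* does. The table describes *dhs-14* as a short-chain dehydrogenase, a class of enzymes that oxidize or reduce alcohols and ketones with a nicotinamide cofactor, and it is the gene next to *R05D8.9*. *R05D8.7*, in the same cluster on chromosome V (2761819 to 2763208), has coding exons of 270, 195, 171 and 204 nt.

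The genes of like structure, *dhs-14* and *F26D2.15*, and the cluster gene *R05D8.7* had smaller differences than *C01G12.5* and *R05D8.9*. None of these smaller differences passed the test in the main fit. *dhs-14* had 474 to 544 reads with atracurium and 444 to 1122 with water, a log2 difference of −0.18 (adjusted p = 0.477, limma-trend). *F26D2.15*, like *dhs-14* with exon lengths identical to those of *C01G12.5*, had 4 to 10 reads with atracurium and 5 to 16 with water. Its log2 difference was −0.15 (SE 0.38, adjusted p = 0.894, limma-trend). *R05D8.7* had 69, 39, 47 and 70 reads with atracurium, against 14, 32, 19 and 27 reads with water. Its groups did not overlap, and its log2 difference of 1.36 (SE 0.30) did not pass the test (adjusted p = 0.170, limma-trend, and 0.0222 to 0.413 over the alternatives), except with sample weights or without atracurium replicate 2. With the default settings of the read counter, reads that align to more than one place are not counted, so a stretch shared between these genes would lose its reads, and whether there is such a stretch was not tested. Apart from the 6, the table names or describes 30 genes as short-chain dehydrogenases, a set without *R05D8.7* and *F26D2.15*, which have no description. None of the 30 was called by limma-trend, against 0.177% of all genes, 16 were higher and 14 lower, and the median log2 difference was 0.04. An unadjusted p under 0.05 in limma-trend was found for 6, against 11.5% of all genes, with 0 called by limma-voom. The lowest adjusted p of the set was that of *dhs-28* (log2 difference 0.30), at 0.181 in limma-trend and 0.0399 to 0.514 over the alternatives.

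**Figure D3:**
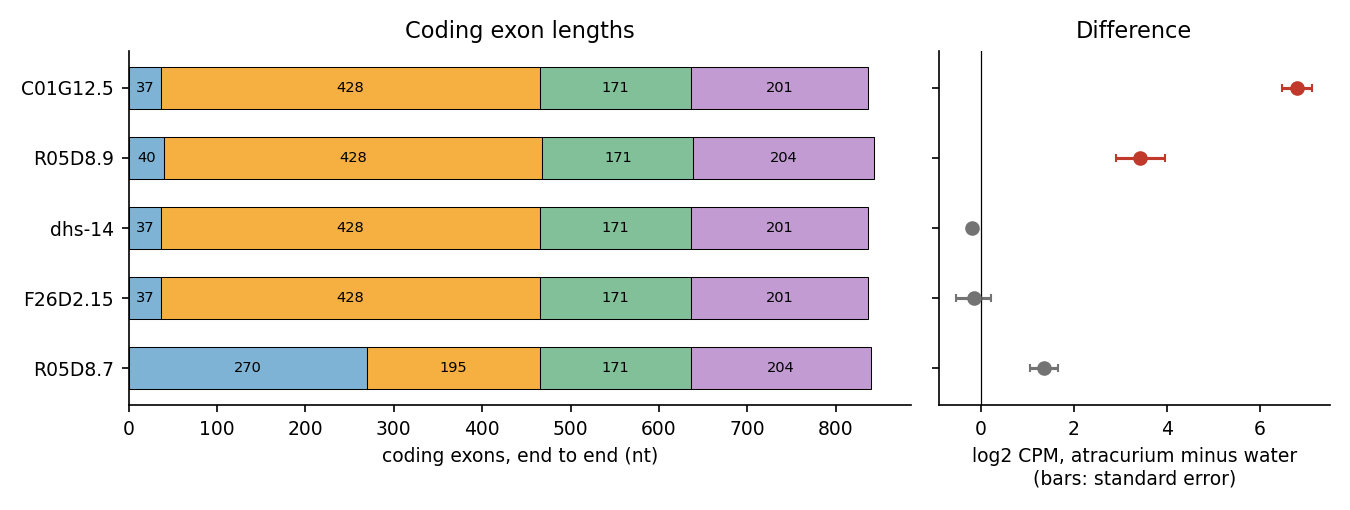
Lengths in nt of the 4 coding exons, drawn end to end and to scale (left), and log2 difference of atracurium minus water with its standard error (right) for *C01G12.5* and *R05D8.9* (red), the like-structured *dhs-14* and *F26D2.15* (gray), and *R05D8.7* (gray), which has no exon of 428 nt. The exons of 428 and 171 nt recur in the upper 4 genes, of which *C01G12.5* (6.80) and *R05D8.9* (3.44) were far from 0 and *dhs-14* (−0.18) and *F26D2.15* (−0.15) were not.

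*T28C12.4* has 9 coding exons of 1974 nt in all in its longer form and 8 coding exons of 1734 nt in its shorter form, and the table does not separate them. It belongs to the carboxylesterases, of which 32 others were tested. These were the genes with a *cest* symbol in RefSeq, the pseudogenes *W02B12.4* and *F07C4.12* included. None of the 32 was called in either direction by limma-trend, against 0.177% of all genes, 16 were higher and 16 lower, their median log2 difference was 0.01 with a range from −0.56 to 0.47, and 4 had an unadjusted p under 0.05, against 11.5% of all genes, with 0 called by limma-voom. In the main fit all 32 therefore lay below the 0.53 of *T28C12.4*, which had been picked for being high. Over the alternatives *F07C4.12*, with 0 to 18 reads with atracurium, reached 0.99, above the 0.47 to 0.59 of *T28C12.4*. The only other gene the table describes by a DOMON domain is *Y73F4A.1*, the direct neighbour of *Y73F4A.2*. Its reads were 251 to 309 with atracurium and 275 to 878 with water, and its log2 difference was −0.45, opposite in sign to that of *Y73F4A.2*, with an adjusted p of 0.301 (limma-trend; 0.119 to 0.629 over the alternatives).

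*C08D8.1* has 11 coding exons of 1329 nt in all, *F58B4.5* has 5 of 1269 nt and *Y73F4A.2* has 3 of 504 nt. Of these, 2 overlap other annotated features. A noncoding RNA gene, *C08D8.6*, of 86 nt lies in an exon of *C08D8.1* on the other strand, and a small nucleolar RNA of 80 nt, *C08D8.3*, lies in one of its introns. *F58B4.5* shares 22 nt of exon at its end with *F17C11.12* on the other strand. *T28C12.4* holds the whole of *T28C12.15*, on the other strand, inside an intron, with no shared exon base. The noncoding RNA genes *T28C12.11* (215 nt, other strand) and *T28C12.10* (148 nt, same strand) also lie within *T28C12.4* and share no exon base with it. The reads were counted by strand, so reads of an opposite-strand gene were assigned to that gene.

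None of the examined genes next to the 6 was called different. The measured genes before and after each of the 6 by start position gave 12 neighbours. For *T28C12.4* the second was the nested *T28C12.15*, so the gene beyond its right end was not examined. Of the 12 neighbours, 0 were called at an adjusted p under 0.05 (limma-trend), against 0.177% of all genes. An unadjusted p under 0.05 was found for 2, against 11.5% of all genes, with 0 called by limma-voom as well. Among the neighbours, 6 were higher and 6 lower, with a median log2 difference of −0.003. *C01G12.5* lies 793 nt from the pseudogene *wee-1.2* (log2 difference −0.31) and 1117 nt from *C01G12.7* (0.70, with 5 to 15 reads with atracurium and 3 to 14 with water). *C08D8.1* lies 229 nt from *C08D8.7* (−0.41) and 6078 nt from *mom-2*, a Wnt ligand (0.05).

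*R05D8.9* lies 1031 nt from *dhs-14* and 795 nt from *dhs-15*, a further short-chain dehydrogenase gene (0.25). *F58B4.5* lies 1918 nt from *F58B4.3* (0.22), and its overlapping neighbour *F17C11.12* had a log2 difference of −0.05. *Y73F4A.2* lies 1893 nt from *Y73F4A.3* (−0.40) and 646 nt from *Y73F4A.1*. On one side of *T28C12.4*, at 4930 nt, the pseudogene *K12B6.8* had 352 to 395 reads with atracurium and 238 to 512 with water, a log2 difference of 0.41 with groups that did not overlap in CPM (adjusted p = 0.220, limma-trend; 0.0519 to 0.557 over the alternatives). The nested gene *T28C12.15* had 1 to 15 reads with atracurium and 1 to 3 with water, a log2 difference of 1.19 (SE 0.57, adjusted p = 0.446, limma-trend).

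**Figure D4:**
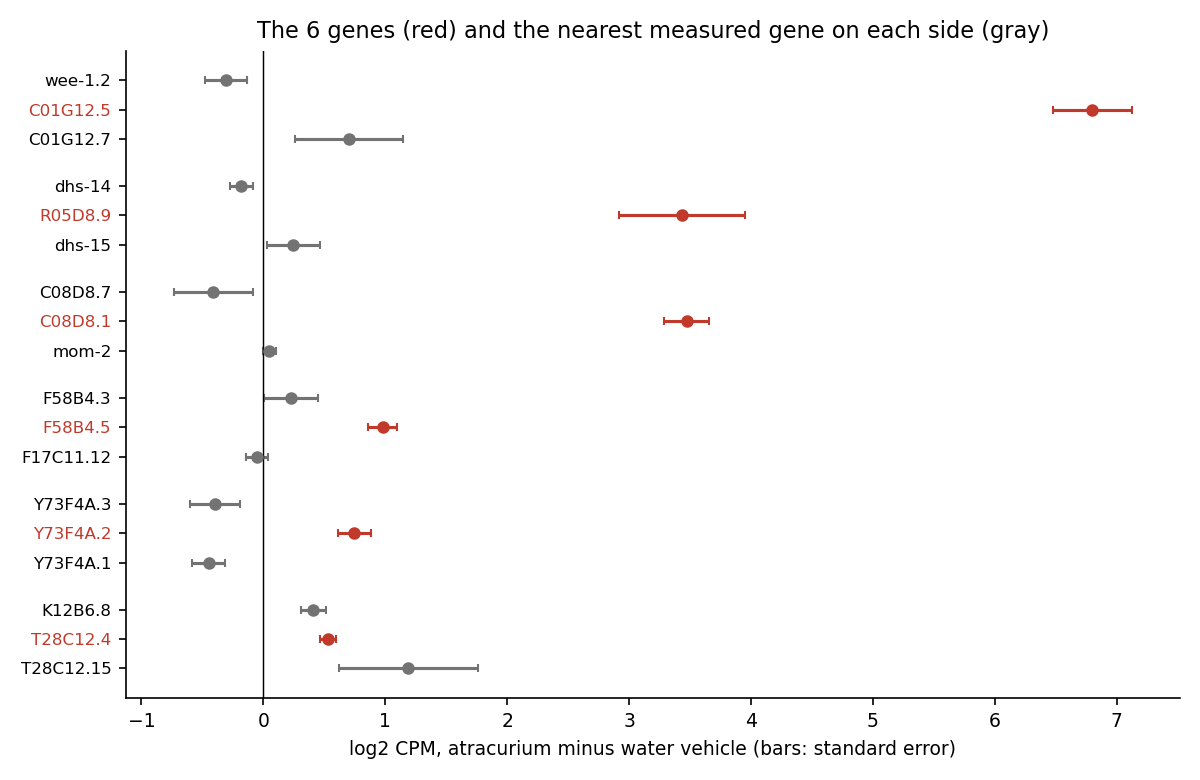
Log2 difference of atracurium minus water, with its standard error as a bar, for each of the 6 genes (red) between the measured genes before and after it by start position on the chromosome (gray). The gray points lie between −0.45 and 1.19, and for 5 of the 6 genes the red point lies to the right of both neighbours. The exception is *T28C12.4* (0.53) beside *T28C12.15* (1.19, 1 to 15 reads with atracurium), which lies inside *T28C12.4* and not next to it.

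Likeness of pattern was measured as the root mean square difference between the log2 CPM profiles over the 8 samples, each gene centred on its own mean. By this measure the genes nearest to *C01G12.5* were *cyp-33C6* (0.97) and *cyp-35B1* (1.13), both cytochromes P450, an enzyme family that oxidizes steroids, lipids and foreign compounds. Those nearest to *C08D8.1* were *cyp-35A1* (0.42) and *pgp-13* (0.57). The second of these encodes a P-glycoprotein, a class of membrane pumps that export foreign compounds. *R05D8.9* was nearest to *fmo-2* (0.78), a flavin-containing monooxygenase, and again to *pgp-13* (0.94). *T28C12.4* was nearest to *unc-23* (0.09) and to *nhr-17* (0.09), a nuclear hormone receptor gene. *F58B4.5* was nearest to *gst-35* (0.17), a glutathione S-transferase gene, and *poml-4* (0.18), and *Y73F4A.2* to *Y40C5A.4* (0.13) and *ZC449.5* (0.14), which also carry sequence names.

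Among the 6 genes themselves, *T28C12.4* and *Y73F4A.2* were closest to each other (0.22), followed by *F58B4.5* and *Y73F4A.2* (0.24) and by *T28C12.4* and *F58B4.5* (0.27). *C08D8.1* and *R05D8.9* were 0.71 apart, and *C01G12.5* was 1.69 to 3.17 from the others. These distances include the difference between the groups that chose the genes. When each gene was centred on its group means instead, 0 of the 12 nearest genes were found again.

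A further 3 genes with a sequence name were called higher with atracurium. *W03G1.5* had 53, 41, 43 and 56 reads with atracurium, against 14, 24, 13 and 10 with water, a log2 difference of 1.72 (SE 0.25, adjusted p = 0.0117, limma-trend; 0.00257 to 0.0979 over the alternatives). *C06B8.2* had 137 to 235 reads with atracurium and 56 to 134 with water, a log2 difference of 1.15 (SE 0.19, adjusted p = 0.0302, limma-trend; 0.00257 to 0.169 over the alternatives). *T10B5.8* had 233 to 256 reads with atracurium and 123 to 276 with water, a log2 difference of 0.70 (SE 0.11, adjusted p = 0.0234, limma-trend; 0.00428 to 0.157 over the alternatives). When each of the 8 samples was left out in turn, *T10B5.8* lost its call in 7 cases (all but atracurium replicate 2), *C06B8.2* in 5 (atracurium replicates 1 and 3 and water replicates 1, 2 and 3) and *W03G1.5* in 2 (atracurium replicate 1 and water replicate 2). In each of these genes the CPM values of the groups did not overlap, and none has a description in the table. The difference of *T10B5.8* was smaller than the 0.75 of *Y73F4A.2*, which was not called, and its samples lay closer together.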

How the data were processed

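RNA of 8 whole worm samples was sequenced by the authors. They trimmed reads with Trimmomatic 0.32, aligned them with HISAT2 2.1.0 to WBcel235 and counted them by strand with HTSeq 0.11.0 on the Ensembl release 91 annotation. They kept a gene if 3 or more samples had over 2 counts. The authors deposited log2 CPM made with edgeR 3.26.8, after TMM scaling of library sizes and with a prior of 2 reads on average. That prior shapes the fitted difference of any gene near 0 reads, and genes below the filter could not be tested.

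From these values whole reads were recovered (100% of values within 0.1 of a whole number), which gave the depths. Each sample was grouped by its treatment label. All 17521 genes were fitted with limma 3.58.1 in R 4.3.3 (limma-trend, no covariates, two-sided, Benjamini-Hochberg adjustment). Ratios of reads carry 95% exact binomial intervals over summed reads, and these and the limit of 3 reads for a count of 0 cover counting error only. Positions, exons and neighbours came from Ensembl release 115 of WBcel235, and symbols from RefSeq. Genes named in the text were the 6, the measured genes before and after each by start position, the 2 nearest profiles outside the 6 for each, and other genes with a sequence name called higher. Genes of like exon structure, *R05D8.7* and genes near 0 reads in water were added after values were seen. The 6 genes and the lists were chosen with earlier results of these data known. Samples with the same replicate number did not deviate together (correlations −0.06 to 0.04). Alternatives covered the test, its moderation, sample weights, normalization, filter, prior count, replicate block and each sample left out. The fit was tested on simulated data.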

Additional observations from a re-analysis of the deposited data

Results flagged for a closer look

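In 12 groups of 4 samples (the 6 genes in each treatment), the highest or the lowest sample was compared with the spacing of the others by Dixon's criterion, which chance alone meets in about 5% of groups. It was met in 2 of the 12. *R05D8.9* in atracurium replicate 1 had a log2 CPM of −0.32, from 26 reads, against 33 to 37 reads in the other atracurium samples. *C01G12.5* in water replicate 3 had a log2 CPM of −2.97, from 2 reads, against 0 reads in the other water samples, a gap of 2 reads. With 3 samples at the same value of 0 reads, any read in the other sample meets the criterion, so the chance rate does not apply to this group.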

How the results depend on the processing

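For the 6 genes, 113 values were recomputed under other settings. Leaving out the mean-variance trend, robust moderation, the stricter filter and the replicate block cannot change a fitted difference. Values from these settings were fixed in advance and say nothing about stability. Of the 113 values, with these included, 109 moved by less than 1 SD of the samples, 4 moved by more and 0 changed sign. The 4 belong to the genes near 0 reads in water: *C01G12.5* was 8.57 with limma-voom and 8.53 with a prior count of 0.5 reads, and *R05D8.9* was 5.09 with limma-voom and 4.81 with that prior count, since both settings add fewer reads to a count of 0. The number of genes called, 31, was 31 with limma-voom, 16 without the mean-variance trend, 139 with sample weights, 134 without atracurium replicates 2 and 4 together and 43 with the length trend removed (both chosen after seeing the data). With a replicate block it was 20, although the replicate numbers do not pair the samples, and it ranged from 17 (without atracurium replicate 1) to 78 (without atracurium replicate 2) when each sample was left out, with 18 without water replicate 2 and 20 without water replicate 3. The 8 genes with a sequence name called higher became 4 without the trend, 20 with sample weights, 15 without atracurium replicates 2 and 4, 5 with the replicate block, and 4 to 14 with each sample left out (4 without atracurium replicate 1 or water replicate 2, 5 without atracurium replicate 3 or water replicate 1, 14 without atracurium replicate 2). For these counts the cause was not tested. The nearest profiles shared 0 of 12 genes when only deviations within groups were used. Small differences changed sign for *F17C11.12* (0.0087 with samples set to a common median) and *F26D2.15* (0.012 with sample weights, 0.021 with quantile normalization, −0.33 to 0.025 with each sample left out, the highest without atracurium replicate 4, 0.19 without atracurium replicates 2 and 4). The planned protein matches and promoter motifs were not run. Counts of a few reads limit *R05D8.9* and the water level of *C01G12.5*.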
